A study of Mus musculus with 7 samples.

Results

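The synaptic vesicle release machinery comprised 45 genes, named by symbol in a list that covers the SNARE proteins, the calcium sensors, the priming and active zone factors, the proteins of the vesicle membrane, the endocytic proteins that recover vesicles, and the cargo and processing enzymes of dense-core vesicles. They were 45 of the 24062 gene symbols with read counts. All 45 were among the 14407 genes with enough counts to be tested. The list was drawn up by function, though with earlier results of these data known.

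The RNA came from neurons of the medial preoptic area (MPA), a hypothalamic region that controls body temperature, in young adult female mice that carry the transgene Esr1-ZsGreen on a C57BL/6J background. This reporter fills cells that express estrogen receptor alpha (ERα, gene Esr1) with green fluorescence, and every neuron sampled was ZsGreen positive. Each neuron was recorded in a brain slice while the bath was warmed by 5 °C. Its contents were then drawn into the patch pipette, and 2 neurons with a like response were pooled to make 1 sample. Temperature-responsive (TR) neurons raised their firing rate on warming by more than a set cut-off and non-responsive (NR) neurons did not. There were 4 TR samples and 3 NR samples. All samples shared the reporter, the slice preparation and the warming. The labels do not say how many mice the samples came from, so p-values measure the spread between pooled samples and may not measure the spread between mice.

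Neurons release transmitter when a vesicle at the active zone fuses with the plasma membrane. Fusion is driven by the SNARE proteins synaptobrevin (Vamp1, Vamp2) on the vesicle and syntaxin 1 (Stx1a) and SNAP-25 (Snap25) on the plasma membrane, which zip together and are later pulled apart by NSF and its SNAP adaptors. Calcium triggers the reaction by binding synaptotagmins, and complexins hold and then help the partly assembled SNARE complex. Clathrin-dependent endocytosis recovers the membrane, while neuropeptides leave the cell from dense-core vesicles, which share much of this machinery. Hypothalamic neurons use both routes.

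Depth and the RNA of some marker genes differed between the groups. Counts per sample ran from 1914497 to 2814360 in TR and from 3309361 to 5125280 in NR. Genes detected numbered 19852 to 21177 in TR and 17818 to 19820 in NR. The groups did not overlap in either measure. The smallest count that can be told from 0, taken as 3 counts, came to 0.585 to 1.57 CPM, the read count scaled to a common library size after TMM normalisation. Such limits cover counting error only. Esr1 had 10 to 27 counts per sample. The study's methods name female mice only, yet the Y-linked gene Ddx3y had 684 to 1150 counts and Xist, the RNA that silences 1 X chromosome in female cells, had 2 to 14 counts, in all 7 libraries. Markers of cells other than neurons were present in every library, and none was at 0 in any. Over 5 astrocyte markers the summed level was 1090.4 to 1270.1 CPM in TR and 882 to 1075 CPM in NR, without overlap, with Gja1 and Slc1a3 higher and Gfap lower in TR. Over 5 endothelial markers it was 94.1 to 317 CPM in TR and 17.9 to 64.9 CPM in NR, again without overlap, and 2 of the 5 were higher in TR. Summed levels of 5 oligodendrocyte markers were 2796 to 3801 CPM in TR and 2372 to 3000.1 CPM in NR, with overlap, and 2 of the 5 were higher and 1 lower in TR. Those of 7 neuronal markers were 1766 to 1933 CPM in TR and 1849 to 1909 CPM in NR, also with overlap, though 4 of the 7 were lower in TR (Rbfox3, Elavl3, Nefl and Tubb3) and 1 was higher (Elavl4). For 5 markers of cortex and hippocampus, regions outside the MPA, the sums were 185 to 317 CPM in TR and 249 to 264 CPM in NR. The part of these differences in the results below was not tested.

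At least 2 genes of every class of the release machinery differed between TR and NR neurons, by modest amounts. Classes held 5 to 8 genes and 30.0% of all genes tested passed the threshold, so 2 calls in 6 or 7 genes lie near that share. Genes past the threshold went both ways in all classes but the active zone scaffolds, where 2 were lower in TR and 0 higher. Of the 45 genes, 19 (42.2%) passed an adjusted p of 0.05 in edgeR's quasi-likelihood test, against 30.0% of all genes tested. Of these, 8 were higher in TR (17.8% of the genes, against 15.1% of all genes tested) and 11 were lower (24.4%, against 14.9%). The higher ones were Snap25, Syt4, Cadps, Synpr, Snap91, Synj1, Sh3gl2 and Cpe, and the lower ones were Stx1a, Napa, Syt5, Cplx2, Rims1, Bsn, Syp, Sv2a, Dnm1, Amph and Chga. The median log2 fold change (TR over NR) was -0.06 over the 45 genes and 0.01 over all genes tested, and the median size of a change was 0.27 and 0.31. Stx1a had the largest change of a gene past the threshold, 0.85 in size, and 0 of the 45 genes exceeded 1. In a sample of 2 pooled neurons, fewer cells that express a gene and less of its RNA per cell cannot be told apart. RNA of other cells, whose markers were present in every library, may also enter these levels, and its part was not tested.

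**Figure D1:**
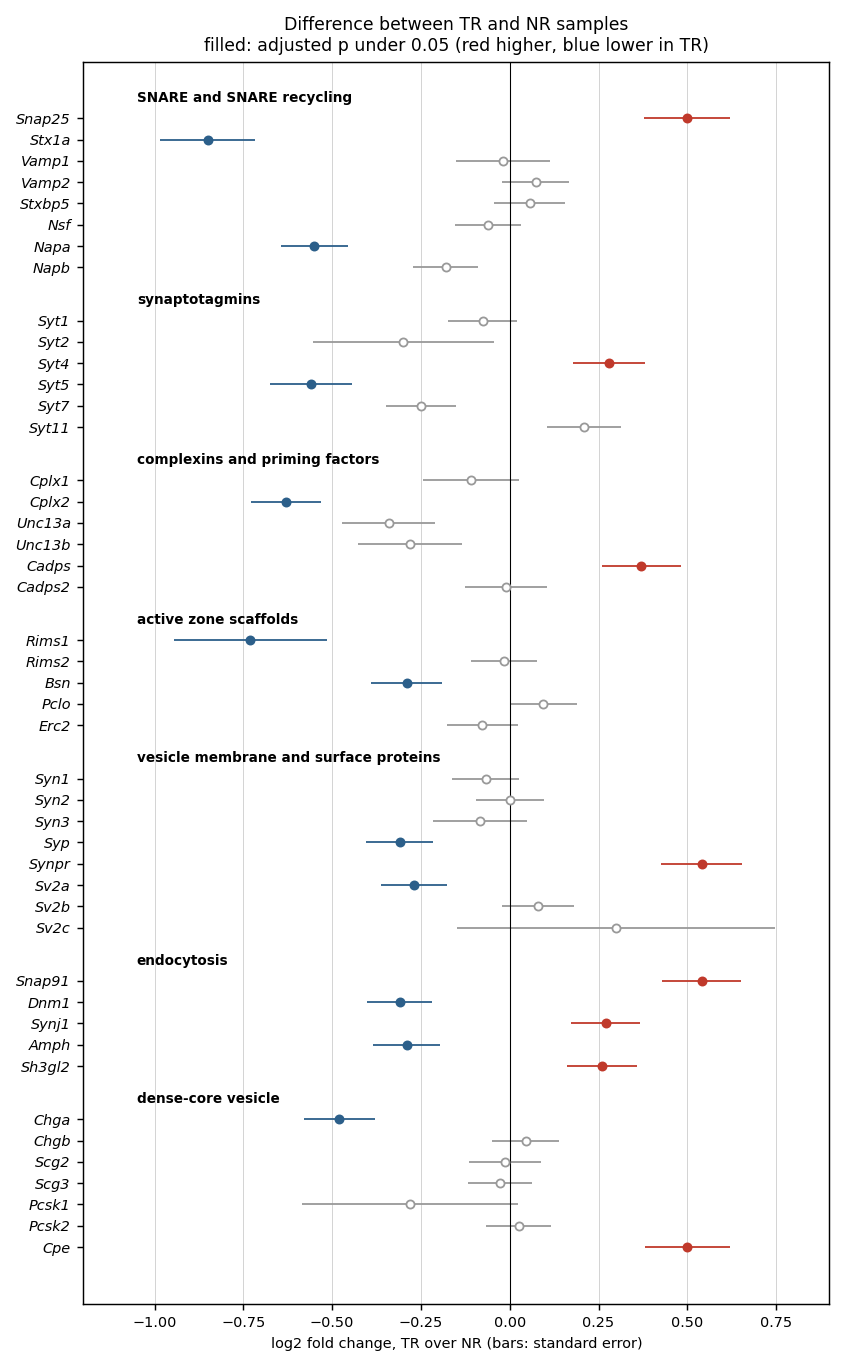
Log2 fold change, TR over NR, of each of the 45 genes, grouped by step of release, with bars of 1 SE each way; filled points passed the adjusted p of 0.05 (edgeR) and open points did not. The 8 higher and 11 lower genes are spread over the classes, and Stx1a lies farthest from 0.

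The groups did not overlap in CPM for 20 of the 45 genes (44.4%, against 35.4% of all genes tested), of which 8 were higher in TR (17.2% of all genes tested) and 12 lower (18.2%). For 18 genes both held, against 26.1% of all genes tested. Rims1 passed the threshold with overlapping groups, and Napb and Syt7 were without overlap but did not pass. With detected genes as a covariate of the model, a measure in which the groups do not overlap, 0 of the 45 genes and 1 of all genes tested passed (edgeR). In that fit 8 of the 45 (17.8%, against 14.3% of all genes tested), all among the 19, were at an unadjusted p under 0.05, and all 19 had the same sign. Leaving out 1 sample at a time gave 9 to 18 called genes, with 11 without TR replicate 2, 12 without NR replicate 2 and 9 without NR replicate 3, where the shares of all genes tested that passed also fell, to 18.5% in the last case.

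As a set the genes were well expressed. The median of their mean levels was 275 CPM, against 35.9 CPM over all genes tested, 37 of the 45 had a mean over 100 CPM, and Syt2, Sv2c and Pcsk1 lay under 20 CPM. Together the 45 genes took 1.36% to 1.43% of all counts in TR samples and 1.35% to 1.43% in NR samples. Their summed level was 13593 to 14878 CPM in TR and 13070.4 to 14253 CPM in NR, so the groups overlapped. Per kilobase of exon, the scale on which different genes can be compared, Cpe was highest, at 301 ± 46.2 CPM per kb in TR and 213 ± 31.8 CPM per kb in NR (mean ± SD, n = 4 and 3, as for all means below). Sv2c was lowest, at 0.469 ± 0.133 and 0.372 ± 0.109 CPM per kb.

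**Figure D2:**
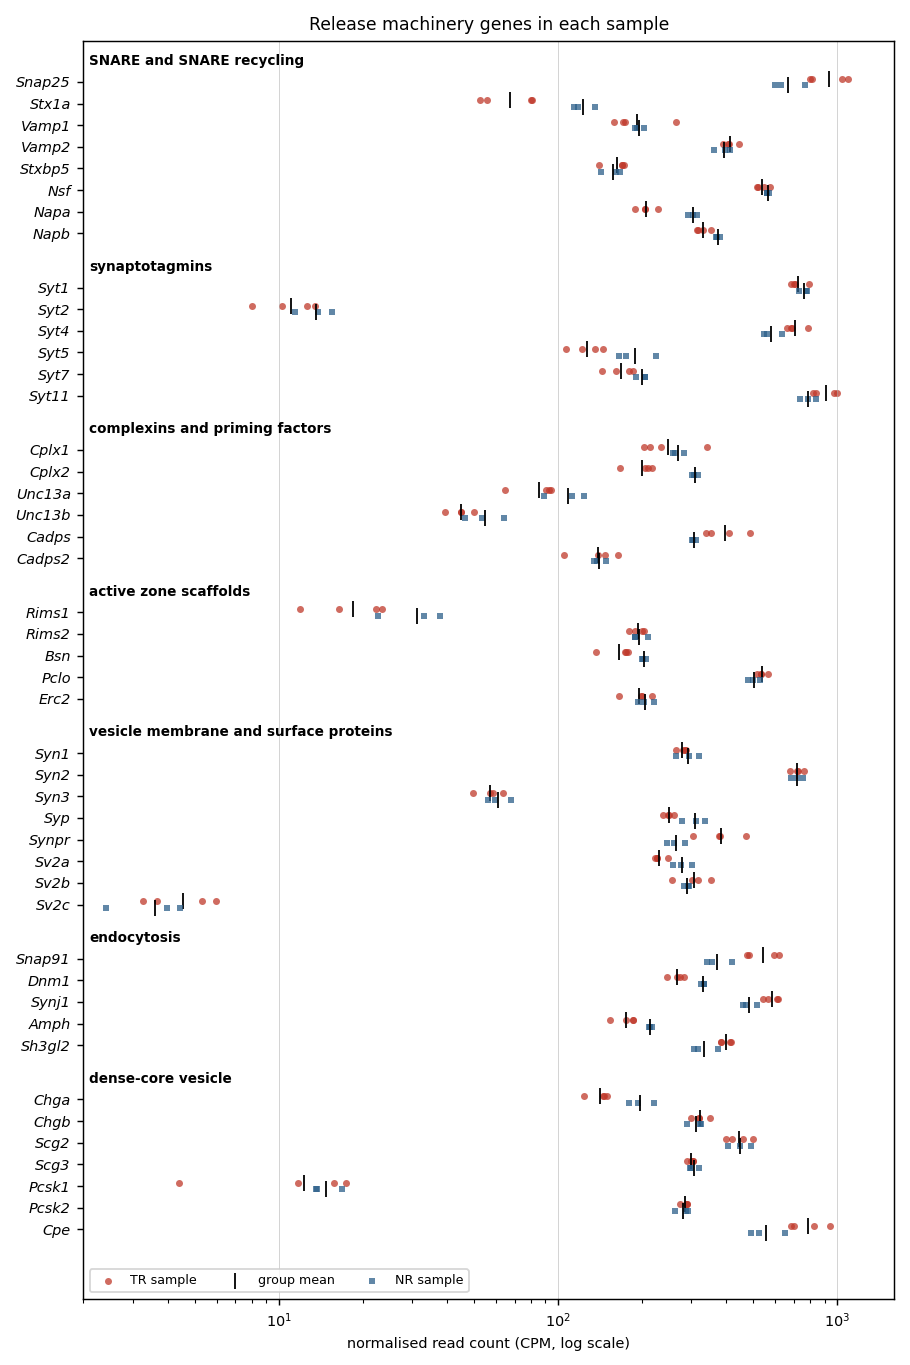
Normalised read count (CPM, log scale) of each gene in the 4 TR samples (red circles) and the 3 NR samples (blue squares), with the group means as black ticks. Snap25, Snap91 and Cpe show TR samples above all NR samples, Stx1a, Napa and Cplx2 show them below, and most other genes show mixed samples.

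Among the 8 SNARE and SNARE-recycling genes, the 2 plasma membrane SNAREs went opposite ways, and the median log2 fold change of the class was -0.04. Snap25 (chr2:136713453-136782428, plus strand in GRCm38) had 1037, 1090.0, 813 and 801 CPM in TR replicates 1 to 4 and 765, 597 and 628 CPM in NR replicates 1 to 3. All TR samples were above all NR samples, TR replicates 1 and 2 stood highest, and the change was 1.41-fold (log2 fold change 0.50, SE 0.12, adjusted p = 0.00391, edgeR). Stx1a (chr5:135023482-135051100, plus strand), which encodes syntaxin 1A, had 52.4, 55.9, 80.1 and 80.7 CPM in TR replicates 1 to 4 and 114, 118 and 135 CPM in NR replicates 1 to 3. Every TR sample was below every NR sample, and the fitted level in NR was 1.80 times that in TR (log2 fold change -0.85, SE 0.13, adjusted p = 0.000195, edgeR).

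Napa (chr7:16098458-16117975, plus strand), which encodes α-SNAP, the adaptor that brings NSF to spent SNARE complexes, had 229, 188, 205 and 205 CPM in TR replicates 1 to 4 and 291, 314 and 304 CPM in NR replicates 1 to 3. The groups did not overlap and the NR mean was 1.47 times that of TR (log2 fold change -0.55, SE 0.09, adjusted p = 0.000276, edgeR). Napb, which encodes the brain form β-SNAP, had 318, 316, 352 and 331 CPM in TR replicates 1 to 4 and 368, 379.7 and 370.2 CPM in NR replicates 1 to 3, also without overlap, but missed the threshold (log2 fold change -0.18, SE 0.09, adjusted p = 0.144, edgeR). The vesicle SNAREs did not pass: Vamp2 had 412 ± 22.7 CPM in TR and 391 ± 26.3 CPM in NR and Vamp1 had 192 ± 48.8 CPM in TR and 194 ± 7.33 CPM in NR, with TR replicate 1 above the rest of its group. Nsf, which encodes the ATPase itself, had 539 ± 26.4 CPM in TR and 562 ± 6.77 CPM in NR, and Stxbp5, which encodes the syntaxin-binding protein tomosyn, had 163 ± 14.9 CPM in TR and 157 ± 12.3 CPM in NR; neither passed. An offset for GC content, which takes the trend of counts with exonic GC out of each sample, left Snap25 with a change of 0.24 (adjusted p = 0.0891, edgeR). With it Napb passed (-0.30, adjusted p = 0.0155, edgeR). Stx1a and Napa passed in every fit except that with genes detected as a covariate.

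Of the 6 synaptotagmins, Syt4 was higher and Syt5 lower in TR, with a class median of -0.16 on the log2 scale. The fast calcium sensor Syt1 had 720.0 ± 47.7 CPM in TR and 759 ± 25.9 CPM in NR, and Syt2, the fast sensor of hindbrain and some inhibitory neurons, was scarce, with 11.1 ± 2.44 CPM in TR and 13.6 ± 2.04 CPM in NR. Neither passed. Syt5, a calcium-binding isoform, had 107, 122, 135 and 145 CPM in TR replicates 1 to 4 and 176, 166 and 224 CPM in NR replicates 1 to 3. Its TR samples were all below its NR samples (log2 fold change -0.56, SE 0.12, adjusted p = 0.00112, edgeR). Syt4, an isoform of dense-core and secretory vesicles that does not bind calcium in the usual way, had 687, 784, 680.5 and 661 CPM in TR replicates 1 to 4 and 632, 547 and 562 CPM in NR replicates 1 to 3, and its TR samples were all above its NR samples (log2 fold change 0.28, SE 0.10, adjusted p = 0.0393, edgeR). Syt11, the nearest relative of Syt4 and the synaptotagmin with the highest CPM, had 998, 973, 839.5 and 821 CPM in TR replicates 1 to 4 and 839, 737 and 784 CPM in NR replicates 1 to 3. Its groups overlapped and it did not pass (log2 fold change 0.21, SE 0.10, adjusted p = 0.138, edgeR). Syt7, the slow high-affinity sensor, had 161, 144, 185 and 180.1 CPM in TR replicates 1 to 4 and 205, 191 and 205 CPM in NR replicates 1 to 3, without overlap, and fell just short of the threshold (log2 fold change -0.25, SE 0.10, adjusted p = 0.0568, edgeR). The call of Syt4 was lost in several fits that left out 1 sample, with an adjusted p (edgeR) of 0.135 without TR replicate 2, 0.065 without TR replicate 3, 0.172 without NR replicate 2 and 0.16 without NR replicate 3, and with the GC offset (0.08, adjusted p = 0.551, edgeR). Another gene covers 14.5% of the exonic bases of Syt4. Syt7 passed without TR replicate 3 (adjusted p = 0.0471, edgeR).

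Among the 6 complexins and priming factors, Cplx2 was lower and Cadps higher in TR, with a class median of -0.20. Cplx2 (chr13:54371349-54383917, plus strand), the complexin of forebrain excitatory and many other neurons, had 204, 167, 218 and 209 CPM in TR replicates 1 to 4 and 307, 318 and 303 CPM in NR replicates 1 to 3. The 3 NR samples lay close together and above all TR samples, and the NR mean was 1.55 times that of TR (log2 fold change -0.63, SE 0.10, adjusted p = 0.000155, edgeR). Its paralog Cplx1 had 341, 202, 214 and 233 CPM in TR replicates 1 to 4 and 282, 258 and 263 CPM in NR replicates 1 to 3, so that TR replicate 1 was above every NR sample and the other TR samples were below. Cplx1 did not pass (log2 fold change -0.11, SE 0.14, adjusted p = 0.559, edgeR), but without TR replicate 1 it did (adjusted p = 0.0172, edgeR).

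Cadps, which encodes CAPS1, a priming factor of dense-core vesicles, had 488, 408, 351 and 339 CPM in TR replicates 1 to 4 and 311, 302 and 303 CPM in NR replicates 1 to 3. All TR samples were above the NR samples, which differed little among themselves (log2 fold change 0.37, SE 0.11, adjusted p = 0.0132, edgeR). Its paralog Cadps2 had 139 ± 24.6 CPM in TR and 140.0 ± 7.08 CPM in NR and did not pass. The Munc13 genes, whose products open syntaxin for SNARE assembly, were at 85.4 ± 14.0 CPM in TR and 109 ± 17.8 CPM in NR for Unc13a and 44.8 ± 4.41 CPM in TR and 54.6 ± 8.91 CPM in NR for Unc13b. Neither passed, with log2 fold changes of -0.34 and -0.28 (adjusted p = 0.0513 and 0.148, edgeR). Unc13a passed without TR replicate 3 (adjusted p = 0.0499, edgeR) or without NR replicate 2 (adjusted p = 0.0218). The call of Cadps was lost with an adjusted p (edgeR) of 0.0511 without TR replicate 1, 0.0545 without NR replicate 2 and 0.0551 without NR replicate 3, and of 0.0519 with the GC offset.

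Of the 5 active zone scaffolds, Rims1 and Bsn were lower in TR and none was higher, with a class median of -0.08. Bsn, which encodes bassoon, a giant scaffold that tethers vesicles, had 137, 175, 178 and 174 CPM in TR replicates 1 to 4 and 207, 202 and 199.8 CPM in NR replicates 1 to 3. The NR samples were nearly equal and above all TR samples (log2 fold change -0.29, SE 0.10, adjusted p = 0.0314, edgeR). Pclo, which encodes the related scaffold piccolo, had 563, 533, 532 and 517 CPM in TR replicates 1 to 4 and 477, 529.6 and 498 CPM in NR replicates 1 to 3, with overlap, and did not pass. Rims1, which encodes a RIM protein that links vesicles to calcium channels, had 16.4, 11.9, 22.3 and 23.4 CPM in TR replicates 1 to 4 and 22.6, 33.2 and 37.7 CPM in NR replicates 1 to 3. It was the least abundant scaffold here in CPM per kb. TR replicate 4 exceeded NR replicate 1, and the gene passed all the same (log2 fold change -0.73, SE 0.22, adjusted p = 0.0128, edgeR). Rims2 had 193 ± 10.6 CPM in TR and 195 ± 12.1 CPM in NR and Erc2, which encodes the ELKS family member CAST, had 195 ± 21.7 CPM in TR and 205 ± 13.9 CPM in NR; neither passed. The call of Bsn was lost with the GC offset (-0.07, adjusted p = 0.613, edgeR) and with an adjusted p (edgeR) of 0.0849 without TR replicate 1, 0.059 without NR replicate 1, 0.086 without NR replicate 2 and 0.0703 without NR replicate 3. That of Rims1 was lost with an adjusted p (edgeR) of 0.057 without TR replicate 2, 0.051 without NR replicate 2 and 0.0888 without NR replicate 3.

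Of the 8 vesicle membrane and surface proteins, Synpr was higher in TR and Syp and Sv2a were lower, with a class median of -0.03. Synpr encodes synaptoporin and Syp encodes synaptophysin, 2 related membrane proteins of the vesicle. Synpr had 305, 469, 377 and 379 CPM in TR replicates 1 to 4 and 286, 246 and 260.1 CPM in NR replicates 1 to 3. TR replicate 2 stood highest, TR replicate 1 lowest of its group but still above the NR samples, and the change was 1.45-fold (log2 fold change 0.54, SE 0.12, adjusted p = 0.00152, edgeR). Syp had 247, 238, 259.6 and 250.2 CPM in TR replicates 1 to 4 and 312, 279 and 337 CPM in NR replicates 1 to 3, with the TR samples below all NR samples (log2 fold change -0.31, SE 0.09, adjusted p = 0.0151, edgeR). Sv2a, the glycoprotein that binds levetiracetam, had 247, 223, 226 and 226 CPM in TR replicates 1 to 4 and 276, 257 and 301 CPM in NR replicates 1 to 3, and again the TR samples were all lower (log2 fold change -0.27, SE 0.09, adjusted p = 0.0306, edgeR).

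The synapsins, which hold the reserve pool of vesicles, did not pass. Syn2 had 678, 757, 725 and 717 CPM in TR replicates 1 to 4 and 755, 684 and 718 CPM in NR replicates 1 to 3, so the groups covered the same range. Syn1 had 279 ± 10.3 CPM in TR and 293 ± 28.4 CPM in NR and Syn3 had 57.3 ± 5.77 CPM in TR and 60.9 ± 6.02 CPM in NR. Sv2b had 306 ± 40.4 CPM in TR and 289.8 ± 6.09 CPM in NR, and Sv2c, at 7 to 22 counts per sample, had 4.55 ± 1.29 CPM in TR and 3.61 ± 1.06 CPM in NR; neither passed. With the GC offset the changes were 0.30 for Synpr (adjusted p = 0.0571, edgeR) and -0.19 for Sv2a (adjusted p = 0.125). Another gene covers 16.8% of the exonic bases of Syp. On leaving out 1 sample, the adjusted p (edgeR) of Syp was 0.0539 without TR replicate 2 and 0.115 without NR replicate 3. That of Sv2a was 0.088 without TR replicate 2, 0.0871 without TR replicate 3, 0.0724 without TR replicate 4 and 0.174 without NR replicate 3.

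All 5 endocytosis genes passed, 3 higher and 2 lower in TR, with a class median of 0.26. Snap91 (chr9:86765923-86880654, minus strand), which encodes the clathrin assembly protein AP180, had 591, 616, 483 and 476 CPM in TR replicates 1 to 4 and 420.0, 355 and 341 CPM in NR replicates 1 to 3. The groups did not overlap and the change was 1.46-fold (log2 fold change 0.54, SE 0.11, adjusted p = 0.00106, edgeR). Synj1, which encodes the phosphoinositide phosphatase synaptojanin 1 that uncoats vesicles, had 609.6, 612, 564 and 543 CPM in TR replicates 1 to 4 and 516, 472 and 459.7 CPM in NR replicates 1 to 3. Sh3gl2, which encodes endophilin A1, the partner that recruits synaptojanin, had 412, 417, 384 and 383 CPM in TR replicates 1 to 4 and 374, 307 and 317 CPM in NR replicates 1 to 3. In both genes the TR samples lay just above the highest NR sample, NR replicate 1, with log2 fold changes of 0.27 ± 0.10 (SE, adjusted p = 0.0371, edgeR) and 0.26 ± 0.10 (adjusted p = 0.0441).

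Dnm1, which encodes dynamin 1, the GTPase that cuts the vesicle free, had 283, 245, 274 and 266 CPM in TR replicates 1 to 4 and 325, 332 and 333 CPM in NR replicates 1 to 3. Amph, which encodes amphiphysin, the protein that brings dynamin to the vesicle neck, had 153, 176, 186 and 186 CPM in TR replicates 1 to 4 and 216, 212 and 214 CPM in NR replicates 1 to 3. In both genes the NR samples were nearly equal and above all TR samples (-0.31 ± 0.09, adjusted p = 0.014 for Dnm1 and -0.29 ± 0.09, adjusted p = 0.0241 for Amph, edgeR). Summed over the class, the level was 1854 to 2065 CPM in TR and 1665 to 1851 CPM in NR, the only class sum without overlap. Of these 5, only Snap91 passed whichever sample was left out. The adjusted p (edgeR) of Synj1 was 0.0629 without TR replicate 1, 0.0972 without TR replicate 2, 0.0638 without TR replicate 3, 0.129 without NR replicate 2 and 0.173 without NR replicate 3. For Sh3gl2 it was 0.0685 without TR replicate 1, 0.107 without TR replicate 2, 0.0647 without TR replicate 3, 0.206 without NR replicate 2 and 0.182 without NR replicate 3. The call of Dnm1 was lost with 0.0628 without TR replicate 2, 0.0564 without NR replicate 2 and 0.0566 without NR replicate 3 (edgeR), and that of Amph with 0.0569 without TR replicate 1, 0.0555 without TR replicate 2, 0.0696 without NR replicate 2 and 0.0679 without NR replicate 3. With the GC offset Snap91 and Amph passed, and Synj1, Sh3gl2 and Dnm1 did not (adjusted p = 0.101, 0.188 and 0.258, edgeR).

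**Figure D3:**
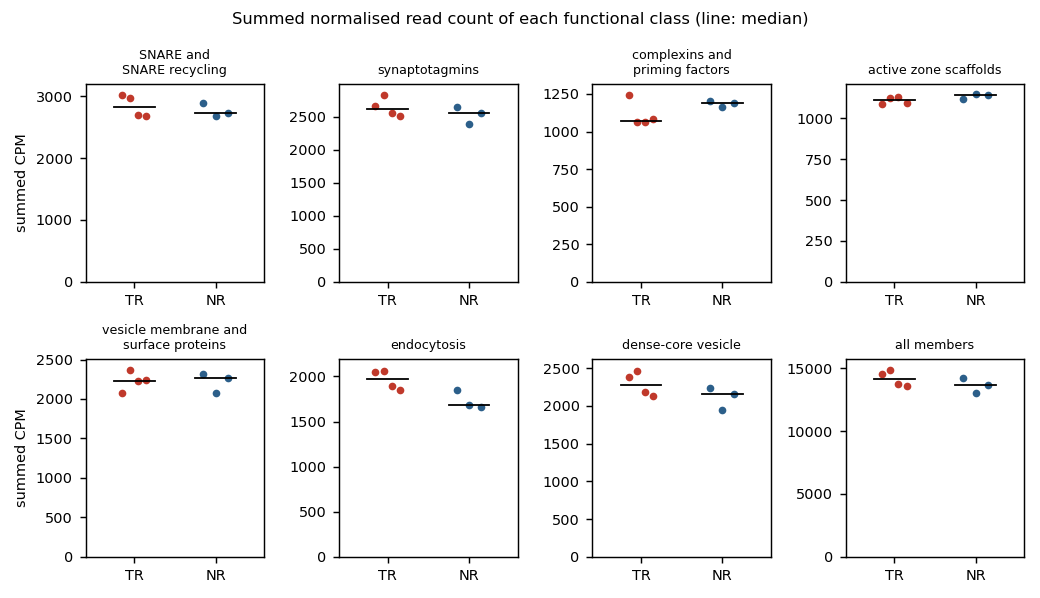
Summed normalised read count (CPM) of the genes of each class in every sample, TR in red and NR in blue, with lines at the group medians and axes from 0. Only the endocytosis sum separates the groups, with TR at 1854 CPM or above and NR at 1851 CPM or below, so the nearest samples lie close together.

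Of the 7 dense-core vesicle genes, Cpe was higher and Chga lower in TR, with a class median of -0.01. Cpe (chr8:64592542-64693054, minus strand), which encodes carboxypeptidase E, the enzyme that trims basic residues from peptide precursors, had 826, 939, 697 and 682 CPM in TR replicates 1 to 4 and 649, 492 and 524 CPM in NR replicates 1 to 3. All TR samples were above all NR samples, by 1.42-fold in the means (log2 fold change 0.50, SE 0.12, adjusted p = 0.00339, edgeR). Chga (chr12:102554969-102565028, plus strand), which encodes the granin chromogranin A, had 149, 124, 145 and 147 CPM in TR replicates 1 to 4 and 193, 179.6 and 219.8 CPM in NR replicates 1 to 3. All TR samples were below all NR samples, and the NR mean was 1.40 times that of TR (log2 fold change -0.48, SE 0.10, adjusted p = 0.00123, edgeR). Both calls were made in every fit except that with genes detected as a covariate.

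The other granins did not pass. Chgb had 322 ± 20.5 CPM in TR and 312 ± 19.5 CPM in NR, Scg2 had 444 ± 44.5 CPM in TR and 447 ± 41.3 CPM in NR and Scg3 had 299.6 ± 7.39 CPM in TR and 306 ± 13.1 CPM in NR. The proprotein convertases, which make the first cuts in peptide precursors, did not pass either: Pcsk2 had 285 ± 8.11 CPM in TR and 280.3 ± 15.4 CPM in NR and Pcsk1, at 12 to 89 counts per sample, had 12.3 ± 5.78 CPM in TR and 14.7 ± 1.86 CPM in NR, with a single low sample, TR replicate 3 at 4.39 CPM.

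Ratios of related genes within a sample do not depend on its depth or normalisation, and 16 pairs were compared. The groups did not overlap in 5 pairs. For single genes the groups did not overlap in 35.4% of all genes tested, and no share over other gene pairs was computed. The log2 ratio of Synpr to Syp was 0.61 ± 0.28 (SD, n = 4) in TR and -0.23 ± 0.13 (SD, n = 3) in NR, a difference of 0.83, so that Synpr exceeded Syp in counts in all TR samples and in no NR sample. That of Chgb to Chga was 1.19 ± 0.21 in TR and 0.66 ± 0.10 in NR, and that of Pclo to Bsn was 1.70 ± 0.23 and 1.31 ± 0.09. Each of these 3 had an exact permutation p of 0.0286 (two-sided), the smallest that 35 arrangements of the samples allow, and 0.152 adjusted over the 16 pairs. The ratio of Napb to Napa was 0.67 ± 0.14 in TR and 0.30 ± 0.03 in NR, and that of Cplx2 to Cplx1 was -0.29 ± 0.33 and 0.21 ± 0.09 (each exact permutation p = 0.0571, adjusted 0.183). No pair passed the adjusted threshold, and the smallest possible p makes that hard to reach with 16 pairs. Without TR replicate 1, 9 pairs were without overlap. With counts corrected for GC content, the differences of Synpr to Syp (0.55), Chgb to Chga (0.44) and Cplx2 to Cplx1 (-0.55) were still without overlap. Pclo to Bsn (0.07) and Napb to Napa (0.15) then overlapped, and Syt11 to Syt4 (0.16) became a pair without overlap.

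**Figure D4:**
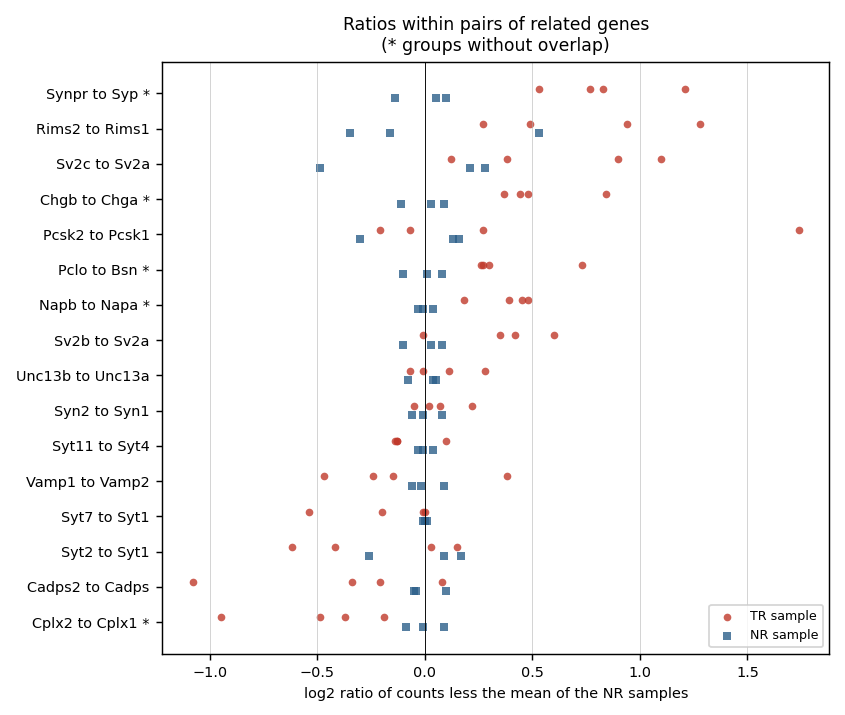
Log2 ratio of counts within each sample, less the mean of the NR samples, for the 16 pairs of related genes, with TR samples as red circles and NR samples as blue squares; asterisks mark pairs without overlap. Synpr to Syp shows the widest gap, 0.83 between the group means, and Cplx2 to Cplx1 is the pair without overlap in which TR lies below NR.

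A feature that the list did not use, the GC content of the exons, ran with the direction of change. Genes higher in TR had 39.2% to 49.9% GC (median 44.9%), those lower in TR had 49.2% to 59.8% (median 55%), and those that did not pass had a median of 46.5%. Spearman's rho of GC content and log2 fold change was -0.577 across the 45 genes and -0.336 across the 13745 tested genes with a value, given as a description since genes of the same libraries are not independent. Of the 14 release genes under 45% GC, 4 were higher and 0 lower in TR, where 28.6% and 4.31% of all tested genes in that range were. Of the 9 at 55% GC or more, 0 were higher and 6 lower, where 6.62% and 27.6% were. With an offset for GC content, 11 of the 45 genes passed (edgeR), which lies at about the share of all genes tested, 24.4%. Of the 11, 2 were higher (Snap91 and Cpe) and 9 lower, against 11.7% and 12.7% of all genes tested. The higher calls thus lay below that share and the lower ones above it. Among the 19 were 10 of the 11. What sets the relation of GC content to the fold change was not tested.

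**Figure D5:**
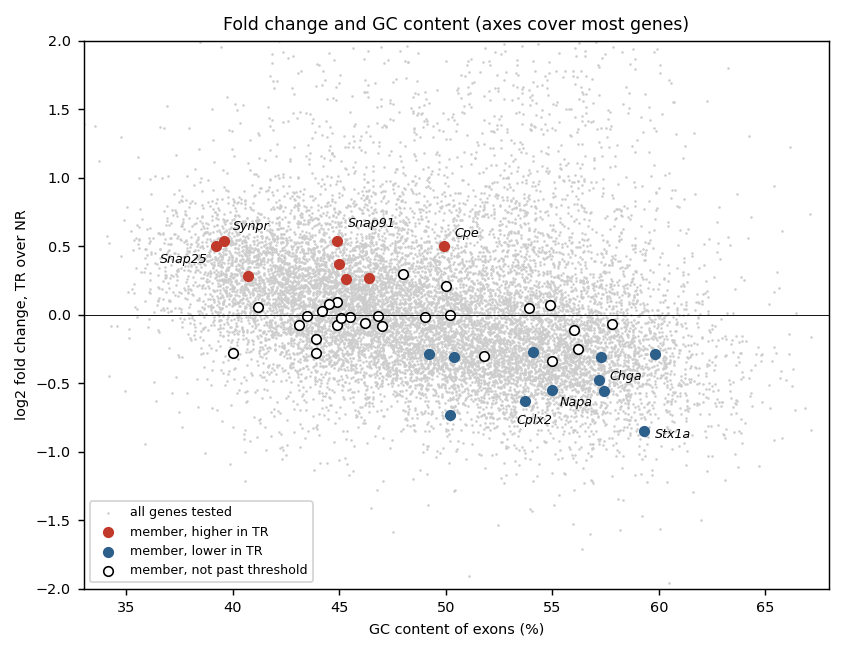
Log2 fold change, TR over NR, against the GC content of the exons in percent, for all tested genes (grey) and the 45 release genes (red, higher in TR; blue, lower; open, not past the threshold); the axes leave out a few outlying genes. Every red point lies under 50% GC and all blue points but 1 lie above it.

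Start sites were compared for short sequence motifs, since many release genes are known targets of neuronal transcription factors. Promoters from the RefSeq annotation of GRCm38.p6, 250 bases before to 50 bases after the start, were at hand for 37 of the 45 genes, and Snap25, Vamp2, Syt4, Syt5, Syt7, Rims2, Syn3 and Cpe had no entry. The full cAMP response element TGACGTCA, which the CREB family binds, was found on either strand in 6 of the 37 (16.2%) and in 2.03% of the 27025 genes with a promoter. The 6 were Scg2, Chgb, Pcsk1, Syn1, Sh3gl2 and Napa, of which Sh3gl2 was higher in TR, Napa was lower, and the rest did not pass. TTCAGCACC, part of the element bound by the neuronal gene repressor REST, was found in 3 of the 37 (8.11%, against 0.433%), Scg2, Syn1 and Unc13a. A scan found the motif of nuclear respiratory factor 1 (NRF1) in Bsn and Stxbp5 (5.41%, against 1.07%). These are matches of letters and show no binding. The shares compared are over all genes with a promoter, expressed or not. No share over the tested genes or over genes of like level was computed. The 5 cAMP response elements upstream of the RefSeq start are shown with 16 bases on each side, 5′ to 3′ along the gene's strand, with the element in capitals, because this motif was found in the largest number of these genes. Of the 5, 3 belong to dense-core vesicle genes.
Scg2 (chr1:79440071-79440110, minus strand): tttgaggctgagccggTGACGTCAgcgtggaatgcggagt
Chgb (chr2:132781554-132781593, plus strand): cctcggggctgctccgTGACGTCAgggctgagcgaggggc
Pcsk1 (chr13:75089763-75089802, plus strand): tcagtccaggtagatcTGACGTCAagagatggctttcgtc
Syn1 (chrX:20921054-20921093, minus strand): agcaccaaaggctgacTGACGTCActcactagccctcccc
Sh3gl2 (chr4:85205403-85205442, plus strand): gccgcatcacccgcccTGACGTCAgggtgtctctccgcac
The element ended 60, 64, 70, 151 and 29 bases before the RefSeq start of these 5 genes, in that order. In the GENCODE annotation, which gave the gene positions above, all 5 genes begin farther upstream. There the element of Scg2, Chgb and Sh3gl2 lies within the gene. The elements of Pcsk1 and Syn1 still lie before the start there, but closer to it. Bsn held the NRF1 motif in 2 places, 138 and 7 bases before its start. The farther is shown, with the motif in capitals, because Bsn was among the genes lower in TR.
Bsn (chr9:108190506-108190547, minus strand): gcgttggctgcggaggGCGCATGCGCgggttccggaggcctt

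The same steps were read in a wider list of 104 other release genes, of which all but 3 could be tested. Of these, 15 were higher and 27 lower in TR (edgeR), with a median log2 fold change of -0.12. The shares over all genes tested were 15.1% and 14.9%. By role, these were 3 higher and 2 lower of 16 other fusion genes, 2 and 10 of 26 other calcium sensors and priming genes, 1 and 3 of 10 other vesicle proteins, 4 and 2 of 14 subunits of the vesicle proton pump, 3 and 6 of 23 other endocytosis genes, and 2 and 4 of 12 other dense-core vesicle genes. Rab3b and Syt3 had some of the largest falls. Rab3b, a vesicle GTPase, had 60.8, 45.6, 62.5 and 82.5 CPM in TR replicates 1 to 4 and 102, 139.8 and 133 CPM in NR replicates 1 to 3 (log2 fold change -0.98, SE 0.15, adjusted p = 0.000155, edgeR). Syt3, a high-affinity calcium sensor, had 54.7, 36.3, 52.3 and 55.9 CPM in TR replicates 1 to 4 and 78.1, 89.4 and 103 CPM in NR replicates 1 to 3 (log2 fold change -0.85, SE 0.14, adjusted p = 0.000223, edgeR). In both genes the TR samples were below the NR samples.

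The 3 largest rises were those of Dner, Sypl and Vamp7. Dner, which encodes a neuronal transmembrane protein related to Notch ligands and is not a known part of the release machinery, was 1 of the 2 higher genes of the dense-core vesicle list. It had 561, 599, 418 and 402 CPM in TR replicates 1 to 4 and 364, 275 and 287 CPM in NR replicates 1 to 3 (log2 fold change 0.68, SE 0.14, adjusted p = 0.00122, edgeR). Sypl, a synaptophysin relative found also outside neurons, had 311, 266, 242 and 213 CPM in TR replicates 1 to 4 and 142, 163 and 182 CPM in NR replicates 1 to 3 (log2 fold change 0.66, SE 0.12, adjusted p = 0.000386, edgeR). Vamp7, a SNARE of late endosomes and of some vesicles, had 226, 213, 176 and 172 CPM in TR replicates 1 to 4 and 131, 126 and 118 CPM in NR replicates 1 to 3 (log2 fold change 0.65, SE 0.11, adjusted p = 0.000213, edgeR). In all 3 the TR samples were above the NR samples.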

How the data were processed

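The RNA of 2 pooled neurons per sample was amplified and sequenced (SMART-seq v4, Nextera XT) for 4 TR and 3 NR samples, grouped and numbered by their labels. Per the labels and the study's methods, the authors aligned reads to mm10 with STAR 2.6.0, removed duplicates and deposited read counts per gene symbol from HTSeq 0.9.1, without normalization. Removal of duplicates can also remove distinct molecules of abundant genes. The annotation and the strand setting are not given in the sources used here, which leaves genes that share exonic bases uncertain.

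The 14407 genes that reached 10 counts in 3 or more samples entered a two-sided quasi-likelihood test in edgeR 4.0.16 under R 4.3.3, with robust dispersions and TMM factors of 0.950 to 1.03. Adjustment was by Benjamini-Hochberg over these genes. The study used DESeq2 (1.42.0 here), which with limma 3.58.1 was an alternative. Standard errors were the log2 fold change divided by the root of F. GC content, lengths and gene positions came from GENCODE M21 (GRCm38), in which 94.6% of symbols were found, and the GC offset was made with mgcv 1.9.3. Ratios used counts plus 0.5. The scripts were tested on simulated data. Counts of replicates differed by more than sampling noise in every pair (chi-square per degree of freedom 1.94 to 5.36), so each sample was counted.

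All 45 genes could be named. Values in each sample were printed for genes past the threshold without overlap and for the gene of each class with the highest mean CPM, to which Rims1, Napb, Syt7 and Cplx1 were added after their values were seen. Of the other release genes, the 3 largest rises and 3 largest falls past the threshold without overlap were named, except 1 that is not reported here. The genes, lists and motifs were chosen with earlier results of these data known.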

Additional observations from a re-analysis of the deposited data

Results flagged for a closer look

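Of 68 measures tested in the TR group for a sample far from the other 3 (Dixon's ratio of the gap to the range, at the 95% critical value), 9 were singled out, where chance gives about 1 in 20, and in all 9 that sample was TR replicate 1. The measures are not independent, since class sums and ratios reuse the same genes and all share the same samples. The count of 9 therefore cannot be weighed strictly against 1 in 20. Vamp1 had 264 CPM there against 158 to 173 CPM (ratio 0.859), and Sv2a had 247 CPM against 223 to 226 CPM (0.87). Stxbp5 had 140.3 CPM against 169 to 172 CPM (0.913), Unc13a 64.6 CPM against 90.2 to 94.4 CPM (0.862), Bsn 137 CPM against 174 to 178 CPM (0.905) and Pcsk2 273 CPM against 288 to 290.1 CPM (0.858). The summed level of complexins and priming factors was 1242 CPM against 1064 to 1081 CPM (0.907). The log2 ratio of Syt11 to Syt4 was 0.54 against 0.30 to 0.31 (0.962), and that of Pclo to Bsn was 2.04 against 1.57 to 1.61 (0.92). Of these genes Bsn and Sv2a were among the 19 past the threshold, and without TR replicate 1 their adjusted p values (edgeR) were 0.0849 and 0.0166.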

How the results depend on the processing

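None of the 19 genes past the threshold changed sign in any of the 20 other fits. With genes detected as a covariate, 1 gene of all tested, 0 of the 45 and 1 of the other release genes passed. Of the 45, 11 passed with the GC offset, where 24.4% of all genes tested did. When it was joined to the replicate block 12 passed, where 20.3% of all genes tested did. Leaving out 1 sample gave 2620 to 4583 genes of all tested (2620 without NR replicate 3), or 18.5% to 32.2%. It gave 9 to 18 of the 45, with the 9 also without NR replicate 3, near the 18.5% of all genes. It gave 28 to 45 of the other release genes, and 5 to 9 pairs without overlap. The split of the calls among the 45, 8 higher and 11 lower, was 8 and 7 with upper-quartile scaling, 5 and 14 with a minimum of 1 count, and 6 and 13 with a length offset. In these fits 29.4%, 24.7% and 30.1% of all genes tested passed, in that order. Cplx1 changed sign with the covariate (0.093), the GC offset (0.024), and block and offset (0.033), and Pcsk1 ranged from -0.53 to 0.025 on leaving out 1 sample. The cause of these shifts was not tested. Of 17 genes under 0.1 in size, 14 changed sign in some fit and 0 passed in any.

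Replicate numbers were given to both groups, but the samples with the same number did not deviate together (correlations -0.128, -0.062 and 0.032). Differently numbered samples had correlations of -0.17 to 0.222, and 0 of 6 samples correlated best with its own number. With so few samples this cannot show whether same-numbered samples share more than a number. With the replicate block 21 of the 45 passed, 8 higher and 13 lower, against 28.6% of all genes tested. Of 16 pairs, 11 differed one way in all same-numbered samples, and 3 independent differences share a sign by chance in 25% of cases. The pairs share samples, some share a gene, and the matching by number may mean nothing, so no conclusion is drawn from this count. At this depth a gene under 3 counts cannot be told from 0, which touches none of the 45.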

Other observations

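The proton pump that acidifies vesicles, and endosomes and lysosomes besides, was split by subunit. The subunits named were picked with their values in view. The accessory subunit Atp6ap2 had 713, 739, 564 and 549.6 CPM in TR replicates 1 to 4 and 493, 409.9 and 425 CPM in NR replicates 1 to 3 (log2 fold change 0.53, SE 0.11, adjusted p = 0.00147, edgeR), and the catalytic subunit Atp6v1a had 1038, 1068, 929 and 875 CPM in TR replicates 1 to 4 and 836, 693 and 671 CPM in NR replicates 1 to 3 (log2 fold change 0.41, SE 0.11, adjusted p = 0.00621, edgeR). Atp6v0b and Atp6v1f also passed as higher in TR. The membrane subunit Atp6v0a1, a form found in synaptic vesicles, had 138, 125, 167 and 144 CPM in TR replicates 1 to 4 and 215, 230.4 and 272 CPM in NR replicates 1 to 3 (log2 fold change -0.73, SE 0.11, adjusted p = 9.71e-05, edgeR), and Atp6v0e2 also passed as lower. In each of these 3 genes the groups did not overlap.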
